A study of Rattus norvegicus with 2 samples.

Results

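The SWI/SNF subunit genes described here are 10 genes chosen by name: Smarca4, Smarca2, Smarcc1, Smarcc2, Smarcd1, Smarcb1, Smarce1, Arid1a, Actl6a and Dpf2. They encode subunits of a chromatin remodelling complex, whose form in embryonic stem cells is known as esBAF. Smarca2 and Smarcc2 are the alternative paralogues to Smarca4 and Smarcc1, on which mouse esBAF is built. The list is 10 of 23282 genes in the deposited table. A row with the expected symbol was found for 9 of them. Smarcc2 stood under the provisional symbol LOC685179 and was taken by its Entrez identifier, 685179, which RefSeq names Smarcc2. Each of the 10 had a single row. The data are RNA-seq values from 2 wild-type rat (Rattus norvegicus) libraries, named biological replicates in the series design. Both came from DA-EC8/Rrrc, an untreated embryonic stem cell line of the Dark Agouti strain, at passage 30, labelled with a normal karyotype and grown in 2i medium, which inhibits MEK and GSK3. There is 1 group from 1 cell line, so no condition can be compared and no p-value is given. Values are RPKM, read numbers scaled to a kilobase of the gene's model and to library size, so levels of different genes can be set side by side.

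SWI/SNF complexes, called BAF complexes in mammals, use the energy of ATP to slide or evict nucleosomes and so change which DNA transcription factors can reach. Most subunits are encoded by small families of paralogues, and for most families a complex takes 1 product, so the choice of paralogue sets the kind of complex a cell can build. In mouse embryonic stem cells, esBAF is known to be built on Smarca4 rather than Smarca2 and on Smarcc1 rather than Smarcc2, and it is needed for self-renewal. In neurons other paralogues, among them Actl6b, Dpf1 and Dpf3, take their places.

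The value steps of the table point to 2991184 reads in replicate 1 and 3050685 reads in replicate 2. At these depths a model of 1 kb with 3 reads, taken below as the floor, has 1.00 RPKM (replicate 1) or 0.983 RPKM (replicate 2), counting error alone considered. Of the table's genes 8902 were listed at 0 in both replicates, and a listed 0 can be a failed estimate. All 6 pluripotency markers examined (Pou5f1, Sox2, Nanog, Tdgf1, Utf1 and Esrrb) averaged 10 RPKM or more, the highest being Utf1 at 655 ± 14.1 RPKM and the lowest Esrrb at 70.5 ± 4.95 RPKM (SD, n = 2). None of 6 heart and skeletal muscle markers and none of 4 blood markers averaged 1 RPKM or more. Highest among the muscle markers was Tnnt2 at 0.885 and 0.299 RPKM and the highest blood marker Cd68 at 0.836 and 1.09 RPKM, while Hbb was listed at 0 in both replicates. Of 6 fibroblast and feeder markers 3 averaged over 1 RPKM, Col1a1 (3.39 and 6.02 RPKM), Col3a1 (1.32 and 3.16 RPKM) and Thy1 (1.01 and 1.73 RPKM). The summed level of the 6 was 6.04 and 10.9 RPKM in replicates 1 and 2, and Col1a2 was listed at 0 in both.

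Subunit genes were detected throughout and most were abundant. All 10 averaged 1 RPKM or more, a level reached by 46.4% of all genes. Of the 10, 9 reached 10 RPKM, as did 29.4% of all genes, and 6 reached 100 RPKM, as did 4.00% of all genes. Their median was 111 RPKM, by mean over replicates, while the median was 0.539 RPKM over all genes of the table and 16.7 RPKM over the 10814 genes that averaged 1 RPKM or more, called detected below. The 8 highest lay within 3.11-fold of each other, from Smarce1 to Smarcc1. The remaining 2, Smarca2 and Smarcc2, are the paralogues that mouse esBAF is known to lack or hold little of, and they were the lowest of the 10.

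**Figure D1:**
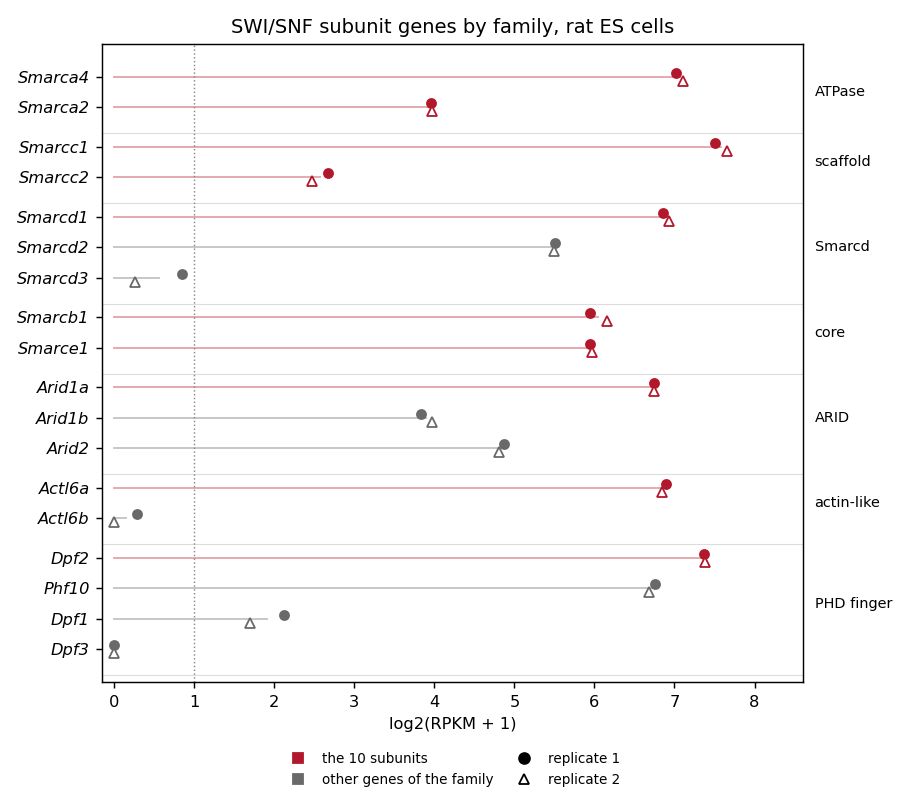
Level of each subunit gene and of the other genes of its family, as log2(RPKM + 1) on the horizontal axis, in replicate 1 (filled circles) and replicate 2 (open triangles); red marks the 10 subunits, grey the other paralogues, grey or red lines run to the replicate mean, and the dotted line marks 1 RPKM. In each of the 6 families with paralogues 1 gene stood highest in both replicates, from Arid1a at 106.6 RPKM in both to Smarcc1 at 181 and 200.1 RPKM, and Dpf3 was listed at 0 in both.

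Transcripts for the catalytic subunit came mostly from Smarca4. Smarca4, the ATPase also called BRG1 (Entrez gene 171379, rn5 chromosome 8, 22702277 to 22793519, plus strand), was at 129 and 137 RPKM in replicates 1 and 2. Smarca2, the alternative ATPase BRM (Entrez gene 361745, rn5 chromosome 1, 251867337 to 252035194, plus strand), was at 14.6 and 14.7 RPKM in replicates 1 and 2. The values of the 2 genes did not overlap, and Smarca4 was 9.09 ± 0.339-fold higher in RPKM (SD, n = 2). On the log2(RPKM + 1) scale the difference, Smarca4 minus Smarca2, was 3.10 ± 0.05, over 2 SD and of the same sign in both replicates, which is the criterion used below for a difference larger than the spread between replicates. Smarca4 made up 90.1 ± 0.333% of the summed RPKM of the pair and Smarca2 9.91 ± 0.333%. Smarca2 was thus low but measurable, with RPKM values that amount to 43.6 and 44.8 reads per kb of gene model in replicates 1 and 2. In bulk RNA a low level in every cell and a higher level in few cells cannot be told apart. The treatment of reads that match both genes, or the Smarca2 pseudogene that RefSeq names (Smarca2-ps2), is not given in the sources used here, so the share is uncertain to that extent.

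The start regions of the ATPase genes are shown because they allow the pair to be compared in sequence as well as in level. Each runs from 250 bases before to 50 bases after the annotated start, from RefSeq on the GRCr8 build, a Brown Norway rat genome rather than Dark Agouti, and capitals mark matches on either strand to GGGCGG (GC box), CCGGAA (ETS family) and CCAAT. The Smarca4 region is chr8:28443569-28443868 and the Smarca2 region chr1:233617121-233617420, both on the plus strand.
Smarca4: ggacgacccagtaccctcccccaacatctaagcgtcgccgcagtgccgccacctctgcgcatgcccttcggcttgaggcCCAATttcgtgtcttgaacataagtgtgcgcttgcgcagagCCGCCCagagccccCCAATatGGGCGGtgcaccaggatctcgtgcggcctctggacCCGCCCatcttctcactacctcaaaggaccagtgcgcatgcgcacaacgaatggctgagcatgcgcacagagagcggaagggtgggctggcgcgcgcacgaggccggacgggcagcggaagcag
Smarca2: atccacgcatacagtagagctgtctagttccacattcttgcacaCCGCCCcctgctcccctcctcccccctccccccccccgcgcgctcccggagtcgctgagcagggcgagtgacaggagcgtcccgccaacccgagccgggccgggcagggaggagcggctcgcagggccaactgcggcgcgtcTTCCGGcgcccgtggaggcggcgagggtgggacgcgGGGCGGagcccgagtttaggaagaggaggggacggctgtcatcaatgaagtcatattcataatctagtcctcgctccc
Smarca4 held 27 CG dinucleotides with 3 GC boxes and 2 CCAAT matches, and Smarca2 held 29 CG dinucleotides with 2 GC boxes and 1 ETS match. No base belonged to matches of different motifs. Over all 33469 start regions of this length in the table, the median was 7 CG dinucleotides and the upper quartile 19. The GC box was found in 33.1% of them, the ETS motif in 15.0% and CCAAT in 37.5%. Both ATPase genes thus have CG-rich start regions. Whether these counts bear on the levels of the pair was not tested.

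Among ATPase genes of the wider SNF2 superfamily, to which the motors of ATP-dependent remodellers belong, Smarca4 was the second highest of 25 examined. Chd4, the motor of the NuRD complex, was higher at 209 and 213 RPKM, and Smarca5, the motor of the ISWI complexes, was next below Smarca4 at 80.2 and 84.2 RPKM. Smarca2 was in place 18. Of the other 23 ATPase genes 20 averaged 1 RPKM or more and 1 reached 100 RPKM, with a list median of 25.3 RPKM. The 3 below 1 RPKM were Smarca1 (0.330 and 0.405 RPKM), Hells (0 and 0.207 RPKM) and, lowest, Chd5, a neuronal remodeller gene (0 and 0.0495 RPKM). Why these were low was not tested.

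The scaffold genes were farther apart in level than the ATPase genes. Smarcc1, or BAF155, one of the SANT-domain scaffolds on which the complex assembles (Entrez gene 301020, rn5 chromosome 8, 117561617 to 117675013, plus strand), was the highest of the 10 genes at 181 and 200.1 RPKM in replicates 1 and 2. Smarcc2, or BAF170, its paralogue (rn5 chromosome 7, 2852005 to 2880208, plus strand), was the lowest at 5.36 and 4.53 RPKM. Smarcc1 was 39.0 ± 7.35-fold higher than Smarcc2 in RPKM (33.8-fold in replicate 1 and 44.2-fold in replicate 2), a log2 difference of 5.01 ± 0.24 that was larger than the spread between replicates. Smarcc2 took 2.54 ± 0.467% of the summed RPKM of the pair. Its values are whole numbers of reads in a gene model of 4925 bp, 79 reads in replicate 1 and 68 in replicate 2, so it lay well above the floor. The exact 95% Poisson intervals were 4.25 to 6.68 RPKM in replicate 1 and 3.51 to 5.74 RPKM in replicate 2, and they overlap. The true model may be a multiple of this length, so these and the other read numbers given for single genes are minimum numbers. The intervals from them cover counting error only and are at their widest.

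**Figure D2:**
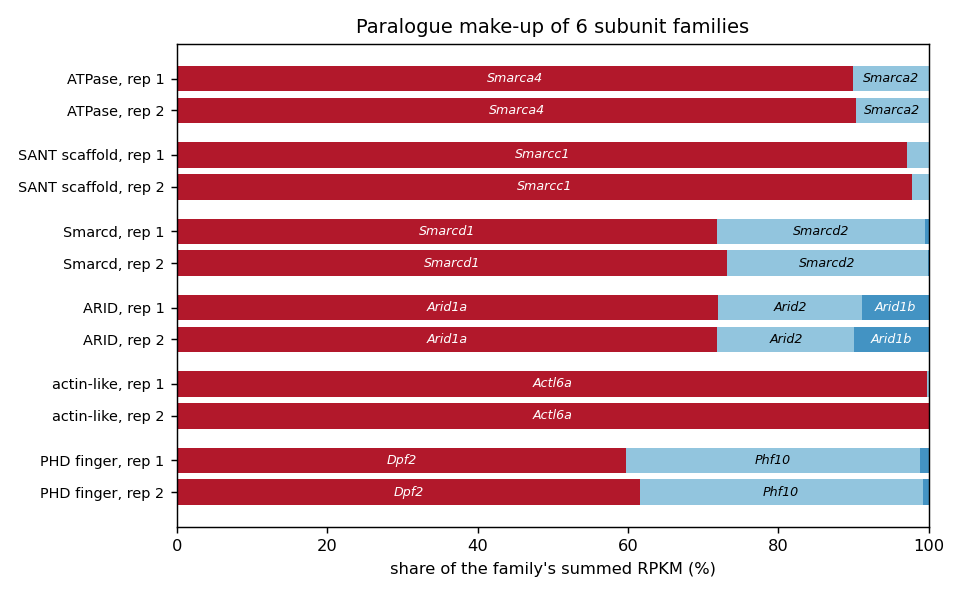
Share of each gene in the summed RPKM of its family, in percent, for 6 families and both replicates (bars sum to 100%); red is the paralogue among the 10 subunits with the higher level, blue shades the others. The leading paralogue took 60.6% (Dpf2) to 99.9% (Actl6a) of its family, by mean of 2 replicates, and the make-up was alike in both libraries.

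Of the Smarcd family, which links the complex to transcription factors and is also called BAF60, Smarcd1 was the leading gene and Smarcd2 a substantial minority. Smarcd1 (Entrez gene 363002) was at 115 and 121 RPKM in replicates 1 and 2. Smarcd2 was at 44.3 and 44.2 RPKM, so that Smarcd1 was 2.66 ± 0.0997-fold higher (log2 difference 1.39 ± 0.05, larger than the spread). Smarcd1 made up 72.4 ± 0.938% of the family and Smarcd2 27.3 ± 0.669%. Smarcd3, the paralogue of heart and skeletal muscle, was at 0.799 and 0.196 RPKM in replicates 1 and 2, which correspond to 4 reads and 1 read in a model of 1674 bp. Over both libraries the ratio of Smarcd1 to Smarcd3 was 238, with an exact 95% counting interval from 102 to 733. Taken alone, replicate 1 gave a ratio of 143 and replicate 2 a ratio of 616. The exact 95% Poisson intervals of Smarcd3 were 0.218 to 2.05 RPKM in replicate 1 and 0.00496 to 1.09 RPKM in replicate 2. They overlap, so the size of this gap is known only roughly. The log2 difference of 6.34 ± 0.47 was larger than the spread but depends on the pseudocount. The summed level of the muscle markers was 0.885 and 0.967 RPKM in replicates 1 and 2, with 3 of 6 (Myh6, Myh7 and Myod1) listed at 0 in both. Their part in the Smarcd3 values was not tested.

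The position of Smarcd1 in the table needs care. The rn5 build places it on chromosome X (115860833 to 115871373, plus strand), whereas RefSeq's GRCr8 annotation has it on chromosome 7. Of its 10 nearest neighbours in the table, 9 could be looked up, among them Aqp2, Gpd1 and Lima1, and all 9 are on chromosome 7 in GRCr8. For the other 9 subunit genes the builds name the same chromosome. Smarcd1 should therefore not be read as X-linked from the deposited coordinates alone.

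The core subunits without a paralogue in the families compared here were the lowest of the 8 abundant genes. Smarcb1, also called SNF5 or BAF47, a core subunit that contacts the nucleosome's acidic patch (Entrez gene 361825, rn5 chromosome 20, 15836278 to 15858384, plus strand), was at 60.4 and 70.3 RPKM in replicates 1 and 2. Smarce1, or BAF57, an HMG-box DNA-binding subunit (Entrez gene 303518, rn5 chromosome 10, 86912863 to 86933996, minus strand), was at 60.8 and 61.8 RPKM. The 2 genes did not differ beyond their spread, with a log2 difference, Smarcb1 minus Smarce1, of 0.09 ± 0.14 and opposite signs in the replicates. RefSeq names 11 Smarce1 pseudogenes, of which 1, Smarce1l, had a row and was listed at 0 in both replicates. Whether such copies cost Smarce1 reads was not tested.

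ARID subunits, which bind DNA and decide between complex types, were led by Arid1a. Arid1a, or BAF250a, the subunit of canonical BAF most often mutated in human tumours (Entrez gene 297867, rn5 chromosome 5, 155592619 to 155635649, minus strand), was at 106.6 RPKM in both replicates. Its close paralogue Arid1b, which can replace it in canonical BAF, was at 13.2 and 14.7 RPKM. Arid1a was 7.67 ± 0.583-fold higher than Arid1b, a log2 difference of 2.85 ± 0.10 and larger than the spread. Arid2, which takes this place in the PBAF complex, was at 28.3 and 27.0 RPKM, and Arid1a was 3.86 ± 0.126-fold higher than it (log2 difference 1.91 ± 0.05, larger than the spread). Arid1a thus took 71.9 ± 0.0773% of the summed RPKM of these 3 genes, Arid2 18.7 ± 0.629% and Arid1b 9.41 ± 0.706%. The near identity of the 2 Arid1a values is closer than its counting error, since 2253 and 2297 reads in a model of 7063 bp give exact 95% Poisson intervals of 102 to 111 RPKM in each replicate.

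Transcripts for the actin-like subunit came almost entirely from Actl6a. Actl6a, or BAF53a, an actin-related protein also found in the INO80 and TIP60 complexes (Entrez gene 361925, rn5 chromosome 2, 138764113 to 138780207, plus strand), was at 118 and 114 RPKM in replicates 1 and 2. Actl6b, or BAF53b, which replaces it when neurons leave the cell cycle, was at 0.214 RPKM in replicate 1, which is 1 read in a model of 1562 bp, and was listed at 0 in replicate 2. Over both libraries the ratio of Actl6a to Actl6b was 1093, with an exact 95% counting interval from 196 to 43190, and replicate 1 alone gave 550. On these read numbers Actl6b was below the floor of 3 reads in each library, and its level could not be told from 0 at this depth.

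Start regions of the actin-like pair are shown because its paralogues exchange places between proliferating cells and neurons. They come from RefSeq on GRCr8, with capitals as above: Actl6a is chr2:117420481-117420780 on the plus strand and Actl6b chr12:24778102-24778401 on the minus strand, each printed along its gene's strand.
Actl6a: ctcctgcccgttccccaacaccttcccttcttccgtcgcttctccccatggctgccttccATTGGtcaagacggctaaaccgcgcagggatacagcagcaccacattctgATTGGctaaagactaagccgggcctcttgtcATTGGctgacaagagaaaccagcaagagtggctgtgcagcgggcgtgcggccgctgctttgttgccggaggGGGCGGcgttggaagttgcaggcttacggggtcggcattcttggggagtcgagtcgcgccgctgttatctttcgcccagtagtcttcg
Actl6b: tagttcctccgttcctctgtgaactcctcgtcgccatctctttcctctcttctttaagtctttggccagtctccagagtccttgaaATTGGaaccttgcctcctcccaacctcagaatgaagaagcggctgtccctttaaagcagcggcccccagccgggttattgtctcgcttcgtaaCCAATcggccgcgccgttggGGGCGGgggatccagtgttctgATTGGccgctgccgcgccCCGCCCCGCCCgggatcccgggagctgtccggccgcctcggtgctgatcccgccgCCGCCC
Actl6a held 22 CG dinucleotides, 1 GC box and 3 CCAAT matches, and Actl6b held 26 CG dinucleotides, 4 GC boxes, of which some overlap, and 3 CCAAT matches. Neither region held the ETS letters, which says only that these letters are not in this window. Of this pair the abundant gene had the lower CG count, and whether that bears on the levels was not tested. Start regions were matched for 9 of the 10 subunit genes, all but Smarcc2. The 9 held 22 (Actl6a) to 39 (Arid1a) CG dinucleotides, all above the upper quartile of 19 over all start regions. A GC box was present in 8 of 9, against 33.1% of all start regions. It was present in 19 of the 25 start regions of all complex genes that averaged 1 RPKM or more, these 9 included. The 4 start regions of the 3 complex genes below 1 RPKM (Smarcd3, Actl6b and Dpf3) all held it as well. An ETS match was present in 3 of 9, against 15.0% of all, and a CCAAT match in 3 of 9, near the 37.5% of all. These counts are a description with no test.

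Transcripts for the PHD-finger subunits came mainly from Dpf2 and Phf10. Dpf2, or BAF45d, which reads acylated histone H3 in canonical BAF (Entrez gene 361711, rn5 chromosome 1, 228186741 to 228201255, minus strand), was the second highest of the 10 at 164 and 166 RPKM in replicates 1 and 2. Phf10, or BAF45a, its counterpart in PBAF, was at 107 and 101 RPKM. Dpf2 was 1.58 ± 0.0741-fold higher, the smallest gap of the pairs compared, with a log2 difference of 0.66 ± 0.07 that still exceeded the spread. Dpf1, a paralogue known from neurons, was at 3.34 RPKM in replicate 1 (47 reads in a model of 4698 bp) and 2.23 RPKM in replicate 2 (32 reads), and Dpf2 was 61.6 ± 17.8-fold higher (log2 difference 5.47 ± 0.31). Dpf3, a paralogue of heart, muscle and neurons, was listed at 0 in both replicates. Dpf2 made up 60.6 ± 1.27% of the family, Phf10 38.4 ± 0.994% and Dpf1 1.02 ± 0.276%.

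In all 10 paralogue pairs, the lower replicate of the gene set first lay above the higher replicate of the other gene. Smarca4 was set before Smarca2 and Smarcc1 before Smarcc2, so Smarca2 and Smarcc2, also subunit genes, lay below their paralogues. The pairs are not independent, since Dpf2, Smarcd1 and Arid1a each stand in several. They were chosen with earlier results of these data known. For 8 of the 10 pairs a log2 difference could be given, and all 8 were larger than the spread between replicates. The other 2, Actl6a with Actl6b and Dpf2 with Dpf3, have a paralogue listed at 0 in at least 1 replicate. The spread is small, with a median log2 difference between replicates of 0.07 in size over genes at 50 to 250 RPKM. No share over other gene pairs was worked out, so these counts do not set the paralogue pairs apart from other pairs. With 2 replicates an exact sign-flip test cannot go below a two-sided p of 0.5, so none was run.

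Ordered by level, the 10 genes were Smarcc1, Dpf2, Smarca4, Smarcd1, Actl6a, Arid1a, Smarcb1, Smarce1, Smarca2 and Smarcc2. Of the 9 pairs of neighbours in this order 7 differed by more than the spread. Smarcd1 and Actl6a did not (log2 difference 0.02 ± 0.08), nor did Smarcb1 and Smarce1. No share over other genes was worked out for this count either. The order came from the same values, so the count is no test of the order. Gene model lengths and the isoforms behind them affect RPKM, and a like level of transcripts does not give a like level of protein.

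Genes particular to the other complex types, PBAF and ncBAF, were present beside the 10 subunit genes. All 4 PBAF-specific genes averaged 10 RPKM or more, led by Phf10, with Brd7, a bromodomain subunit, at 62.5 and 62.7 RPKM. Their lowest was Pbrm1, the polybromo subunit that defines PBAF, at 20.2 and 18.9 RPKM. All 3 ncBAF-specific genes reached 1 RPKM. Brd9, the bromodomain subunit of that complex, was at 24.1 and 22.7 RPKM, while its partners Bicra (9.12 and 7.59 RPKM) and Bicral (9.22 and 7.73 RPKM) were below the median of detected genes. The median was 111 RPKM over the 10 subunit genes, against 45.1 RPKM over the PBAF list and 8.48 RPKM over the ncBAF list, a description with no test.

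Accessory subunits were uneven. All 8 reached 1 RPKM, from Actb, the actin subunit that is also a cytoskeletal gene, at 715 and 725 RPKM, to Bcl11a at 1.34 and 1.79 RPKM. Beside Actb, 3 reached 10 RPKM: Ss18, Bcl7c (48.9 and 45.0 RPKM) and Bcl7b (11.5 and 11.6 RPKM). Of the genes that neurons use in place of the proliferating-cell subunits, Actl6b, Dpf1, Dpf3 and Ss18l1, 2 reached 1 RPKM and none reached 10 RPKM. Ss18l1, also known as CREST, was at 6.79 and 7.39 RPKM, while its paralogue Ss18 was at 50.8 RPKM in each replicate. Beside these values, 3 of 6 neuron markers reached 1 RPKM, with a summed level of 54.0 and 58.0 RPKM in replicates 1 and 2, mostly from Tubb3 (32.4 and 32.2 RPKM) and Stmn2 (17.5 and 22.0 RPKM). The third was Map2 at 2.65 and 2.39 RPKM. The other 3 averaged below 1 RPKM, Rbfox3 at 0.889 and 0.581, Snap25 at 0.176 and 0.864 and Syp at 0.362 and 0 RPKM. The part of neuronal cells in the Dpf1 and Ss18l1 values was not tested.

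**Figure D3:**
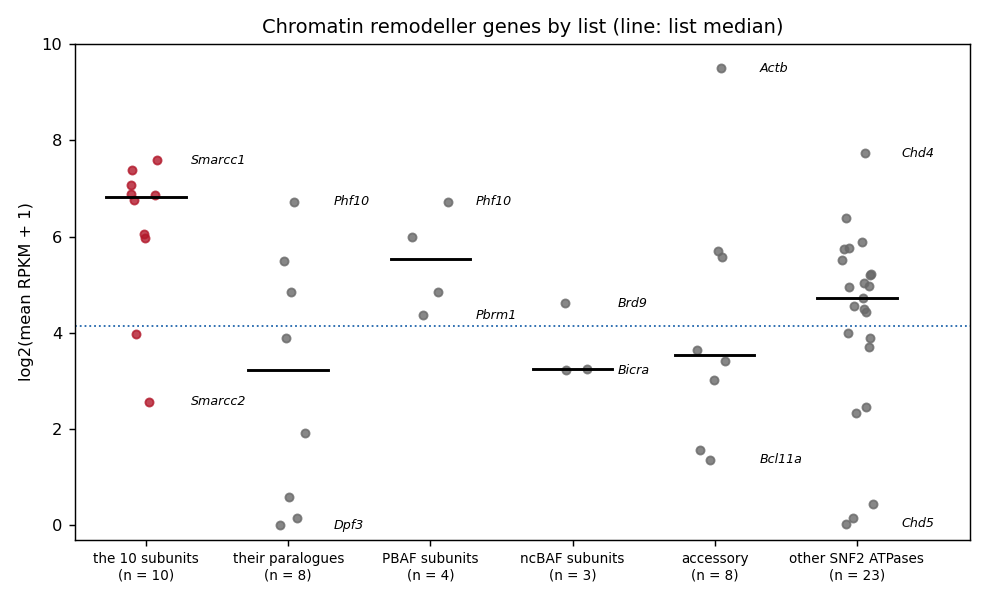
Level of each gene as log2(mean RPKM + 1), by list, with the list median as a black line and the median of the 10814 genes at a mean of 1 RPKM or more as a dotted line; Arid2 and Phf10 stand in both the paralogue and the PBAF list. Of the 10 subunits (red) 8 lie above the dotted line of 16.7 RPKM, and Smarca2 and Smarcc2 lie below it.

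The gene annotation of the deposited table can be set beside these levels. Its Gene Ontology column places 2 genes in the neural progenitor BAF complex and not in the neuronal one, Phf10 and Actl6a, and both had a mean above 100 RPKM. It places 3 genes in the neuronal complex only, Dpf1, Actl6b and Dpf3, of which Dpf1 alone reached 1 RPKM. Of the 10 subunit genes 9 carried at least 1 of the SWI/SNF, progenitor or neuronal BAF terms, the exception being Dpf2. The table's own paralogue column names Smarca2 for Smarca4, LOC685179 for Smarcc1, Smarcd2 and Smarcd3 for Smarcd1, Arid1b, Arid3b and Arid3c for Arid1a, and Dpf1, Dpf3 and Phf10 for Dpf2, and it names none for Actl6a, Smarcb1 and Smarce1.

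Subunit genes differed little between the replicates. None of the 10 passed a 2-fold ratio of RPKM + 1 in either direction, against 0.721% of the 10814 detected genes, so a count of 0 is near the background. The log2 ratio, replicate 1 minus replicate 2, ranged from -0.21 for Smarcb1 to 0.20 for Smarcc2. Of the 10, 7 were higher in replicate 2 and 3 in replicate 1. Its median was -0.02 over the 10 genes and 0.02 over all detected genes. Smarcb1 stood farthest out, and 6.58% of the 1992 genes between 50 and 250 RPKM were at least as far apart. Its 95% counting intervals, 51.0 to 71.1 RPKM in replicate 1 and 60.2 to 81.6 RPKM in replicate 2, overlap. Smarcc1 followed among the abundant genes at -0.14, which 19.6% of the same genes equalled or exceeded.

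**Figure D4:**
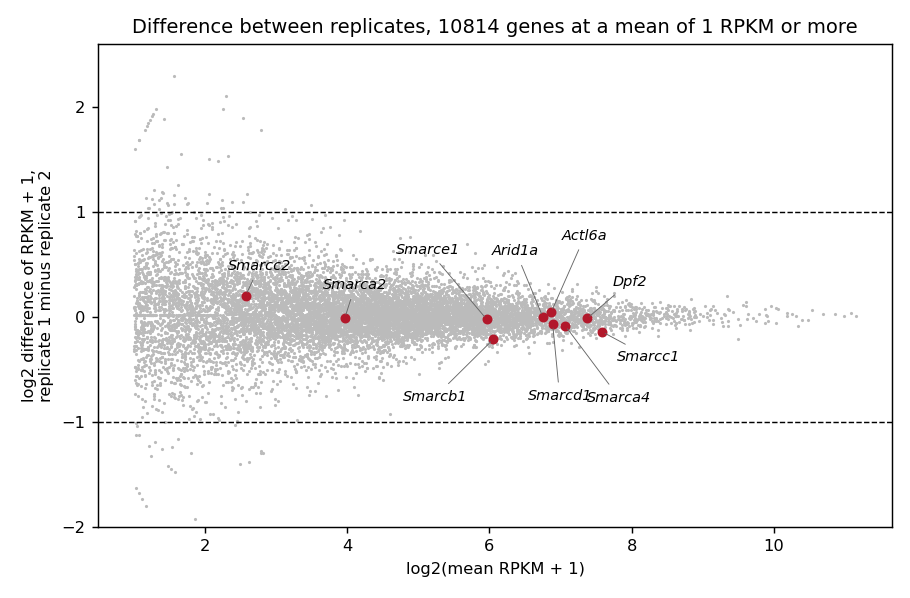
Log2 difference of RPKM + 1 between the libraries (replicate 1 minus replicate 2) against log2(mean RPKM + 1) for 10814 genes (grey) and the 10 subunit genes (red); dashed lines mark 2-fold. All 10 subunit genes lie between the dashed lines, from -0.21 (Smarcb1) to 0.20 (Smarcc2).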

How the data were processed

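RNA-seq libraries (TruSeq kit, total RNA) of 2 wild-type samples were used. A single table deposited by the authors holds RPKM per gene row, with positions on rn5; its columns were assigned to libraries from the sample titles. CASAVA 1.8 and TopHat 1.4.0 are named, per the submitters' processing notes. The sources used here give no counting tool, strand setting or treatment of reads with several matches. Rows were summed by Entrez gene (23716 rows, 23282 genes). Count models were not used on RPKM. Levels are given per replicate with mean ± SD. Differences are on the log2(RPKM + 1) scale, on which those of low genes come out too small.

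The search for read totals began from the total best supported by whole reads at loci under 6000 bp. Its smallest whole-number fraction that kept nearly as many values whole was taken, where there was one. The totals used made 527 of 2700 values whole in replicate 1 and 525 of 2688 in replicate 2. They may be too low by a common factor. For single genes the shortest model up to 20000 bp that gave whole reads in each library (relative tolerance 3e-07) was used where fewer than 0.01 matches would arise by chance. The procedure was tested on simulated data.

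The 10 genes, the lists and the comparisons were chosen with earlier results of these data known. Every gene of the families is named. Of each other list the highest and the lowest are named and, where 5 or fewer are counted, the ones counted. Smarca5, Smarca1, Hells and the neuron markers below 1 RPKM were added after their values were seen. So were the neighbours of Smarcd1 and the genes named from the annotation columns. Nothing beyond the word "biological" says whether the samples are separate cultures, so the SD covers these samples and may be technical. Gene names, and the GRCr8 chromosomes set beside those of rn5, came from RefSeq (GRCr8), with no positions except those of the start regions. Alternatives were another pseudocount, detection minimum, scaling, row choice and background, and each replicate alone. Software was scipy 1.17.1, pandas 2.3.3, numpy 2.4.6 and matplotlib 3.10.9 under Python 3.11.15.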

Additional observations from a re-analysis of the deposited data

How the results depend on the processing

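Depth limits the low paralogues most: Actl6b and Smarcd3 rest on 1 and 5 reads over both libraries, and the log2 differences that involve low genes depend on the pseudocount. With a pseudocount of 0.1 RPKM the log2 difference was 3.18 for Smarca4 minus Smarca2, 7.83 for Smarcd1 minus Smarcd3 and 5.86 for Dpf2 minus Dpf1. With each library rescaled to a sum of 1000000 it was 7.06 for Smarcd1 minus Smarcd3. Rescaling multiplied the levels of all genes of a library alike (Smarca4 averaged 304 after it, in place of 133 RPKM). A higher pseudocount shrinks differences against low genes by construction. No difference changed sign, and the 8 pairs stayed larger than the spread, under the pseudocount and the rescaling. Rescaling acts on both genes of a pair alike, so for these differences it amounts to a smaller pseudocount. Every gene of these pairs had a single row, so taking the highest row per gene could change nothing. With a minimum of 3 RPKM 1 of the 4 neuron-restricted genes counted as detected, in place of 2, while all 10 subunit genes counted at 0.3, 1 and 3 RPKM. With a minimum of 10 RPKM 0.0146% of genes passed 2-fold between replicates. Leaving out either replicate moved no count by over 1.5 times; with 2 replicates, a single value lies within 1 SD of the mean by construction, so this says nothing of the levels. No paired analysis was possible because the series has a single group.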
